A study of Mus musculus with 8 samples.

Results

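T cell receptor gene segments are the V, D, J and C elements of the alpha, beta, gamma and delta loci. They were taken as every gene of the deposited table whose symbol names such an element, which gave 205 of 27179 genes. Of these, 153 lie in the alpha locus, 39 in the beta locus, 4 in the gamma locus and 9 in the delta locus. The RNA came from LTi (lymphoid tissue inducer) cells of C57BL/6 mice, a kind of innate lymphocyte that starts the formation of lymphoid organs. They were sorted as lineage-negative cells that carry CD127 and CCR6 and lack NKp46, NK1.1 and KLRG1. The 4 groups, with 2 libraries each, were small-intestine lamina propria (LP) of Tcf7fl/fl mice with Cre, LP of Tcf7+/+ mice, Peyer's patches (PP) of Tcf7fl/fl mice with Cre and PP of Tcf7+/+ mice. This Cre is active in LTi cells and also in developing T cells. Whether the Tcf7+/+ (wild-type) mice carry Cre is not in the labels. Nor are ages, sexes, the number of mice behind a library, or whether libraries of a group came from separate mice, so p-values measure only the spread between these libraries.

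A T cell receptor chain is made when the RAG enzymes join a V segment to a J segment, in the beta and delta loci with a D segment between them, and the joined exon is spliced to a constant (C) gene. Before any joining, promoters beside the D and J segments can give germline transcripts that run through unjoined D and J segments into the C gene. LTi cells carry no T cell receptor on their surface, while the beta and gamma loci are known to be transcribed in innate lymphoid cells and their precursors.

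The beta locus holds a pair of clusters in a row on the plus strand of chromosome 6 (GRCm38), each with 1 D segment, a run of J segments and 1 C gene. The first runs from Trbd1 at chr6:41533201-41533212 through Trbj1-1 to Trbj1-7 into Trbc1 at chr6:41538219-41539665. The second runs from Trbd2 at chr6:41542163-41542176 through Trbj2-1 to Trbj2-7 into Trbc2 at chr6:41546730-41548181. The sequences of both D segments, of the J segments that open each cluster, of the J segments that differed most between the tissues and of a pair of gamma J segments on chromosome 13 are shown to make plain how short the measured elements are. They come from GENCODE transcripts of GRCm38 and run 5′ to 3′.
Trbd1: gggacagggggc
Trbd2: gggactgggggggc
Trbj1-1: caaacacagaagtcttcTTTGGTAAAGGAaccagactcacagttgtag
Trbj2-1: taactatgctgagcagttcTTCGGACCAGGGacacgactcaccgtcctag
Trbj2-2: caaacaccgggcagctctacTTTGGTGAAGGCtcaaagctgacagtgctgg
Trbj2-3: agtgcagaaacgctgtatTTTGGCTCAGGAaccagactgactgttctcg
Trgj1: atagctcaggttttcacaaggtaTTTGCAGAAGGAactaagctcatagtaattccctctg
Trgj4: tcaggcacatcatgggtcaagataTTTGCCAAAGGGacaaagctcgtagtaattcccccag

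The capitals mark the J motif, which reads phenylalanine, glycine or alanine, any residue and glycine. It was searched as the letters TTTGG followed after 4 letters by GG, with T or C allowed as the third letter and G or C as the last of the first run. On the coding strand it was found in 62 of the 80 annotated J segments of all loci and in 12 of 14 of the beta locus. It was found on the other strand in 0 of the 80. Trbd1 spans 12 bases, Trbd2 14 and Trbj2-2 51, so 1 read adds far more RPKM (reads per kilobase of gene and per 1e6 reads) there than in a longer gene. In the first LP labelled knockout library 1 read was worth 1.70 RPKM in Trbd2, 0.466 RPKM in Trbj2-2 and 0.0457 RPKM in Trbc2.

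The C genes of the beta locus are near copies of each other. In the first 300 bases of their transcripts Trbc1 and Trbc2 differ at 1 base, shown in capitals in bases 230 to 289, and share an unbroken run of 259 bases. Reads within that run cannot be told apart, and the sources used here do not say how they were counted, so the split between Trbc1 and Trbc2 is uncertain. Over their aligned bases the gamma C gene Trgc1 was 96.2% identical to Trgc2 and 97.2% to Trgc3, and the same holds for their split. The gamma J segment Trgj1 was 93.3% identical to Trgj2 and 90% to Trgj3, so reads of one may count for another.
Trbc1: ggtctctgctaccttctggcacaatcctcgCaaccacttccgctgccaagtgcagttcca
Trbc2: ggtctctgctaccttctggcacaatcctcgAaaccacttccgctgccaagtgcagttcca

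The libraries held 38.5 to 44.4 M reads as recovered from the RPKM steps, and every read count given here rests on these totals. All 11 LTi markers had at least 1 RPKM in all 8 libraries, and their summed level was 3057 to 3645 RPKM in LP and 5976 to 6728 RPKM in PP. The targeted gene Tcf7 did not follow its label, with 237 and 215 RPKM in LP labelled knockout, against 229 and 246 RPKM in LP wild-type, and 356 and 337 RPKM in PP labelled knockout, against 243 and 85.4 RPKM in PP wild-type. The table gives 1 value per gene and not per exon, so it does not show whether a part of Tcf7 was lost, and the groups are called labelled knockout here. Genes of the mitochondrial genome made up 13.4% and 13.6% of total RPKM in PP labelled knockout, against 3.06% to 5.06% in the other 6 libraries.

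Most segments gave no signal. Of the 205, 146 had no read in any library, 45 reached 1 RPKM in at least 1 library, and 27 did so in at least 2 and were tested. The tested segments were 19 of the beta locus, all 4 of the gamma locus, 3 of the delta locus and 1 of the alpha locus. By kind, 17 of 129 V segments reached 1 RPKM in any library, and 14 of those 17 did so in 1 library only (82.4%). Of the J segments, 21 of 68 reached 1 RPKM and 3 of the 21 did so in 1 library only (14.3%). Over all genes of the table the share seen in 1 library only was 16.7% of 12657.

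Of the segments taken by symbol, those of the beta locus held most of the summed RPKM. All 39 of its segments summed to 1298 and 1109 RPKM in LP labelled knockout and 1465 and 1502 RPKM in LP wild-type, against 2679 and 2333 RPKM in PP labelled knockout and 4167 and 3646 RPKM in PP wild-type. All LP libraries lay below all PP libraries in this sum. In each tissue both libraries labelled knockout lay below both wild-type ones, an order of sums that was not tested. Sums of RPKM weigh short segments heavily, so reads are also given. Beta J segments held 2216 and 1073 reads in LP labelled knockout and 1692 and 2218 in LP wild-type, against 3643 and 3005 in PP labelled knockout and 5336 and 5196 in PP wild-type. The same order of tissues held for beta C reads, with 3727 and 4609 in LP labelled knockout and 5261 and 4134 in LP wild-type, against 6663 and 9838 in PP labelled knockout and 11775 and 15128 in PP wild-type. The order of genotypes did not hold in LP, where both J reads and C reads overlapped between labelled knockout and wild-type. The gamma C genes are listed under older symbols and were not counted here. They held 16541 and 16237 reads in PP labelled knockout and 15785 and 21854 in PP wild-type, above the beta C reads of each library. In LP they held 1475 and 4459 reads in labelled knockout and 1377 and 1683 in wild-type, below the beta C reads. The lead of the beta locus in RPKM thus did not carry over to reads in PP.

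**Figure D1:**
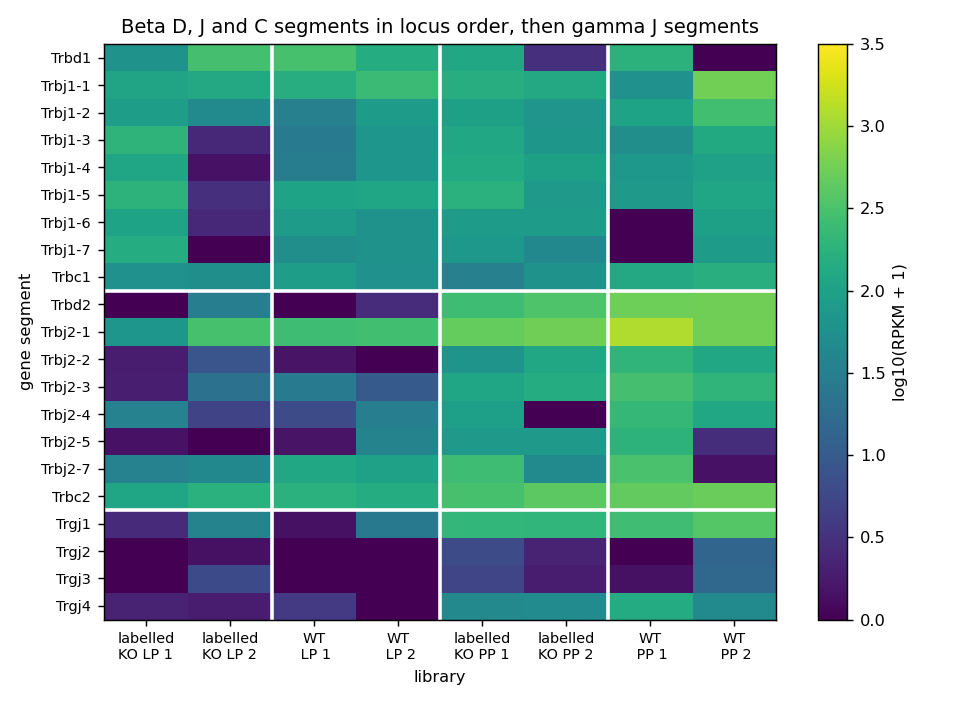
Level of each beta D, J and C segment in locus order, then of each gamma J segment (rows), in each of the 8 libraries (columns), as log10(RPKM + 1) by colour. The white lines between rows part the Trbd1 to Trbc1 cluster, the Trbd2 to Trbc2 cluster and the gamma segments; Trbd2 reached 30.9 RPKM at most in LP and at least 259 RPKM in PP.

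V segments took little part in the signal of the beta locus. Beta V segments summed to 0.0699 and 0.225 RPKM in LP labelled knockout and 4.82 and 0.225 RPKM in LP wild-type, against 56.1 and 18.7 RPKM in PP labelled knockout and 101.9 and 70.1 RPKM in PP wild-type. The PP libraries were higher in V sum than all LP libraries. A spliced transcript of a joined gene carries 1 V and 1 C segment, so V and C sums are set side by side on the per-length scale. The V sum was 0.000411 and 0.000996 of the C sum in LP labelled knockout and 0.0183 and 0.00111 of it in LP wild-type, against 0.169 and 0.0396 in PP labelled knockout and 0.175 and 0.107 in PP wild-type. In all 8 libraries the beta V sum was thus below the beta C sum, by the widest margin in LP. Coverage along the transcripts could not be examined in this table, and its part in these ratios was not tested.

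**Figure D2:**
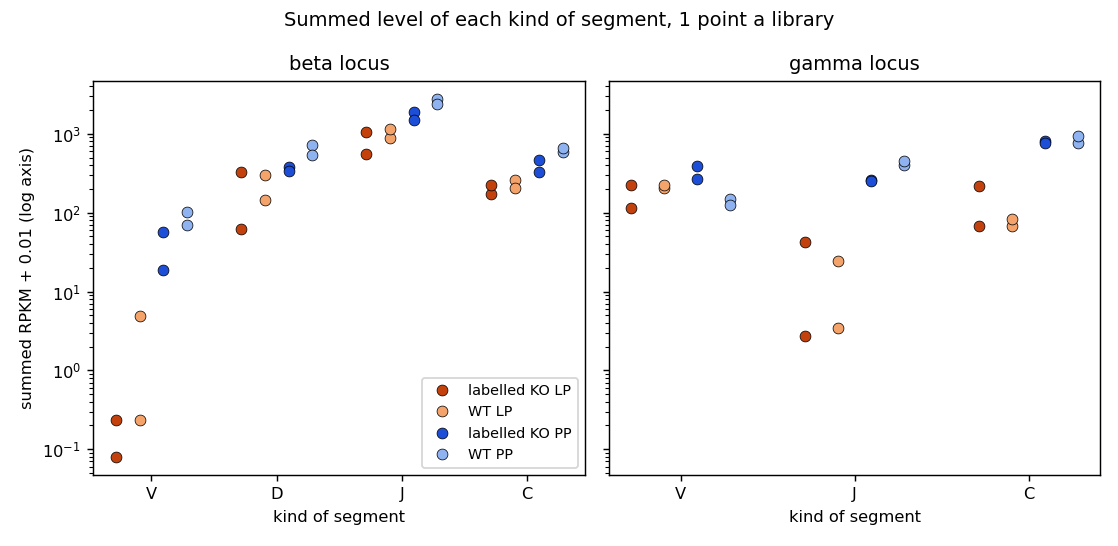
Summed RPKM of each kind of segment (V, D, J, C) in the beta locus on the left and the gamma locus on the right, 1 point a library, with 0.01 added and a log axis; gamma sums include segments listed under older symbols. Beta V sums lie between 0.0699 and 4.82 RPKM in LP and between 18.7 and 101.9 RPKM in PP, while beta C sums lie between 170.4 and 655 RPKM in all 8 libraries.

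The clearest difference was between the tissues. Averaged over the genotypes, 6 of the 27 tested segments passed limma at a Benjamini-Hochberg adjusted p under 0.05, all lower in LP, where 4.33% of all 10541 genes tested passed. They were 4 segments of the second beta cluster (Trbd2, Trbj2-2, Trbj2-3 and Trbc2) and 2 gamma J segments (Trgj1 and Trgj4). The median log2 fold change of LP against PP was -1.46 over the 27 segments and -0.10 over all genes tested. Trbj2-2, Trbj2-5, Trgj2, Trgj3, Trbv13-2, Trbv13-3, Trdc and Trdj1 reached 1 RPKM in at most 1 LP library. Their place among the 27 thus rested on PP, and that of Trdv4, with 1 such PP library, rested on LP. All LP libraries lay below all PP libraries in 7 of the 27, where 7.05% of all genes did so, and above them in 0, where 6.54% did so. This test treats all 8 libraries as separate, and whether any mouse gave both tissues is not in the labels. In bulk RNA, fewer cells with a transcript and less transcript per cell cannot be told apart.

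In the second beta cluster, the D segment Trbd2 had 0 and 30.9 RPKM in LP labelled knockout and 0 and 1.82 RPKM in LP wild-type, against 259 and 339 RPKM in PP labelled knockout and 539 and 545 RPKM in PP wild-type. Behind these stood 17 reads at most in LP and 140 to 339 reads in PP, with no overlap, and the 2 LP libraries with no read allow up to 5.09 and 5.57 RPKM by counting error alone. Its log2 fold change was -7.03 ± 1.02 (SE, adjusted p = 0.00362).
Trbj2-2, printed above, had 0.932 and 7.48 RPKM in LP labelled knockout and 0.510 and 0 RPKM in LP wild-type, against 63.4 and 125.3 RPKM in PP labelled knockout and 194 and 123 RPKM in PP wild-type. Its LP libraries held 15 reads at most and its PP libraries 125 to 385. The log2 fold change was -5.73 ± 0.83 (SE, adjusted p = 0.00362). It reached 1 RPKM in only 1 LP library, so it was tested only because it was high in PP. This limit holds for its other tissue comparisons too.
Trbj2-3 had 0.970 and 19.7 RPKM in LP labelled knockout and 26.0 and 8.85 RPKM in LP wild-type, against 114.5 and 145 RPKM in PP labelled knockout and 293 and 193 RPKM in PP wild-type. The highest LP library again lay below the lowest PP library. The log2 fold change was -4.11 ± 0.73 (SE, adjusted p = 0.0108).

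Trbc2, which codes for the constant part of the beta chain and received the most reads of the 205 segments in each library, had 111.5 and 172 RPKM in LP labelled knockout and 171.5 and 144.5 RPKM in LP wild-type, against 298.5 and 410 RPKM in PP labelled knockout and 451 and 497 RPKM in PP wild-type. The groups of LP and PP libraries did not overlap and each held to a narrow range. The log2 fold change was -1.46 ± 0.26 (SE, adjusted p = 0.0108), smaller than that of Trbd2, Trbj2-2 and Trbj2-3. With no filter on low genes Trbd2 and Trbj2-3 no longer passed, at an adjusted p of 0.0511 and 0.0700 by limma. Trbj2-1, the first J segment of the cluster, had 67.0 and 302 RPKM in LP labelled knockout and 259.5 and 275 RPKM in LP wild-type, against 471 and 544 RPKM in PP labelled knockout and 1209 and 559.5 RPKM in PP wild-type. It was lower in all LP libraries and missed the threshold, with a log2 fold change of -1.72 ± 0.43 (SE, adjusted p = 0.0507). It was the highest J segment of its cluster in each of the 8 libraries, and so it kept a higher level in LP than Trbj2-2 and Trbj2-3.

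The first beta cluster stood beside this with 0 of its 9 tested segments passing and a median log2 fold change of -0.32, against 4 of 8 passing and a median of -2.77 in the second cluster. In wild-type alone the medians of the first and second cluster were 0.0656 and -2.57. In the libraries labelled knockout they were -2.10 and -3.08, so the clusters lay closer there. The difference between the clusters was not tested. Trbc1 had 58.8 and 53.8 RPKM in LP labelled knockout and 91.8 and 58.4 RPKM in LP wild-type, against 32.9 and 60.4 RPKM in PP labelled knockout and 129.7 and 158 RPKM in PP wild-type. LP and PP overlapped, and the log2 fold change was -0.32 ± 0.44 (SE, adjusted p = 0.766). Trbj1-1 had 108.9 and 129 RPKM in LP labelled knockout and 149 and 244.5 RPKM in LP wild-type, against 152 and 129.5 RPKM in PP labelled knockout and 57.2 and 577 RPKM in PP wild-type. The PP wild-type libraries held both its lowest and its highest value. Trbd1, the D segment of this cluster, had 61.4 and 297 RPKM in LP labelled knockout and 303 and 144.5 RPKM in LP wild-type, against 121 and 2.07 RPKM in PP labelled knockout and 175 and 0 RPKM in PP wild-type. In PP 1 library of each genotype was at or near 0, at 1 read or none, and the log2 fold change of 3.40 ± 1.54 did not pass (SE, adjusted p = 0.261).

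Single libraries broke the run of first-cluster J segments. In the second LP library labelled knockout Trbj1-1 and Trbj1-2 had 129 and 45.6 RPKM, while Trbj1-3 to Trbj1-7 had 0 to 4 reads each. In the first PP wild-type library Trbj1-6 and Trbj1-7 had no read, while Trbj1-1 to Trbj1-5 had 103 to 201 reads each. In the other 6 libraries all 7 Trbj1 segments reached 1 RPKM. Replicates of a group differed by more than 2 on the log2(RPKM + 1) scale in 14 of the 27 tested segments in LP labelled knockout, 7 in LP wild-type, 7 in PP labelled knockout and 11 in PP wild-type. Over all genes tested such gaps made up 21.9% to 34.4%, against 25.9% to 51.9% of the segments.

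**Figure D3:**
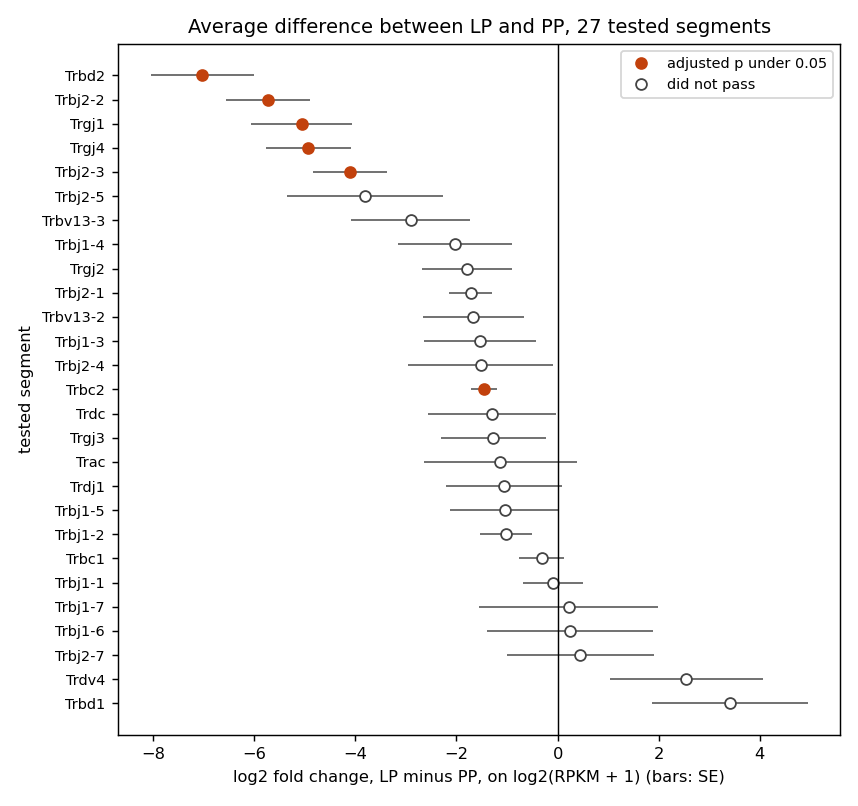
Log2 fold change of LP against PP averaged over the genotypes (x axis, on log2(RPKM + 1), bars are SE) for each of the 27 tested segments (y axis). Filled points passed at adjusted p under 0.05; the 6 filled points run from -7.03 for Trbd2 to -1.46 for Trbc2, and Trbd1 has the highest value at 3.40.

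Gamma J segments were also lower in LP. Trgj1, which lies upstream of the gamma constant gene Trgc1, had 1.58 and 35.6 RPKM in LP labelled knockout and 0.433 and 24.7 RPKM in LP wild-type, against 209 and 203 RPKM in PP labelled knockout and 266 and 376 RPKM in PP wild-type. In each LP group 1 library held 1 to 4 reads and the other 58 to 84, all below the 485 to 1002 reads of the PP libraries. Its log2 fold change was -5.06 ± 1.0 (SE, adjusted p = 0.0186). That call was lost without either PP library labelled knockout, without the second PP wild-type library and without the first LP library labelled knockout, at an adjusted p of 0.0513 to 0.0601, and with no filter on low genes, at 0.117. Trgj4 had 1.17 and 0.834 RPKM in LP labelled knockout and 2.98 and 0 RPKM in LP wild-type, against 42.8 and 47.3 RPKM in PP labelled knockout and 140.4 and 44.3 RPKM in PP wild-type. The LP libraries held 7 reads at most, and the log2 fold change was -4.93 ± 0.84 (SE, adjusted p = 0.00821). Trgj2 and Trgj3 stayed at or below 13.9 RPKM, were at 0 in both LP wild-type libraries and did not pass.

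The gamma C genes and the gamma V segments are listed under older symbols, were matched by identifier and are not among the 205. Trgc1 had 66.3 and 209.8 RPKM in LP labelled knockout and 39.2 and 55.1 RPKM in LP wild-type, against 723 and 641 RPKM in PP labelled knockout and 653 and 791 RPKM in PP wild-type. It was the gene of these loci with the smallest p, with a log2 fold change of -3.22 ± 0.42 (SE, adjusted p = 0.00182). Trgc4 was also lower, by a log2 fold change of -3.70 ± 0.83 (SE, adjusted p = 0.0340), with 0.541 and 0.445 RPKM in LP labelled knockout and 18.7 and 13.1 RPKM in LP wild-type, against 50.9 and 82.0 RPKM in PP labelled knockout and 84.4 and 46.6 RPKM in PP wild-type. The sum of the gamma V segments overlapped between the tissues. It was 224 and 115 RPKM in LP labelled knockout and 208 and 223 RPKM in LP wild-type, against 387 and 270.5 RPKM in PP labelled knockout and 151 and 125.5 RPKM in PP wild-type. Trgv5 made up most of it in LP, with 204 and 95.7 RPKM in LP labelled knockout and 163 and 177 RPKM in LP wild-type. The gamma V sum was 3.31 and 0.523 times the gamma C sum in LP labelled knockout and 3.09 and 2.73 times it in LP wild-type, against 0.471 and 0.350 times in PP labelled knockout and 0.195 and 0.132 times in PP wild-type.

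Within wild-type mice alone 3 of 27 segments passed between LP and PP, all lower in LP, where 2.13% of all genes passed. Trbj2-2 had a log2 fold change of -6.98 ± 0.98 (SE, adjusted p = 0.0227) and Trbd2 one of -8.34 ± 1.49 (SE, adjusted p = 0.0449). The V segment Trbv13-3 had 0.153 and 0.15 RPKM in LP wild-type, against 65.9 and 53.3 RPKM in PP wild-type, that is 2 and 2 reads against 873 and 805. Its log2 fold change was -5.71 ± 0.87 (SE, adjusted p = 0.0297). It reached 1 RPKM in the PP wild-type libraries only, so it was tested only because it was high there. The count of 3 fell to 0 without either PP wild-type library, either LP wild-type library or either PP library labelled knockout, and to 2 without either LP library labelled knockout. Both LP wild-type libraries lay below both PP wild-type libraries in 14 segments, where 21.4% of all genes did so, and above them in 1, where 26.0% did so.

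Within the libraries labelled knockout 0 of 27 segments passed between LP and PP, where 2.0% of all genes passed. The count was 1 without the second LP library labelled knockout. The smallest adjusted p over all 8 libraries was 0.0816, for Trbj2-2. An unadjusted p under 0.05 was found in 8 of the 27 (29.6%), all lower in LP, against 14.7% of all genes. LP libraries lay below PP libraries in 12 segments, where 28.1% of all genes did so, and above them in 0, where 17.5% did so. The median log2 fold change of the segments was -1.90, against -0.29 over all genes. The tissue difference was not shown to depend on genotype, since 0 of 27 segments passed the interaction test, where 0.0285% of all genes passed. In that test 1 segment, Trbv13-3, had an unadjusted p under 0.05, with a difference of 5.61 ± 1.23 on the log2 scale (SE, adjusted p = 0.309). That is 3.70% of the 27, against 8.75% of all genes.

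Between genotypes no segment passed in either tissue, which does not show that the levels were alike. In PP 0 of 27 passed in limma, where 0.360% of all genes passed. An unadjusted p under 0.05 was found in 3 of the 27 (11.1%), near the 11.4% of all genes. All 3 had a negative fold change, lower in both libraries labelled knockout, and were Trbv13-3, Trbv13-2 and Trbc1. Trbv13-3 had 0.152 and 0.219 RPKM in PP labelled knockout, against 65.9 and 53.3 RPKM in PP wild-type, a log2 fold change of -5.67 ± 0.87 (SE, adjusted p = 0.0617). Trbv13-2, a V segment with 90.6% of its bases in common with Trbv13-3, had 0 and 0.146 RPKM in PP labelled knockout, against 35.8 and 14.4 RPKM in PP wild-type, a log2 fold change of -4.47 ± 1.09 (SE, adjusted p = 0.164). In both the groups did not overlap, and reads of one V segment may count for the other. Both were tested only because they were high in wild-type libraries, and the same limit holds for Trbv13-3 in the interaction and for both in the average over the tissues. Trbc1 had 32.9 and 60.4 RPKM in PP labelled knockout, against 129.7 and 158 RPKM in PP wild-type, a log2 fold change of -1.66 ± 0.50 (SE, adjusted p = 0.245).

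The V segments above 1 RPKM in PP labelled knockout were others. Trbv15 and Trbv5 had 29.2 and 26.6 RPKM in the first library and Trbv4 had 18.2 RPKM in the second, while each was below 1 RPKM in the other 7 libraries. Libraries labelled knockout lay below the PP wild-type libraries in 10 segments, where 14.8% of all genes did so, and above them in 1, where 22.7% did so. That segment was the delta V segment Trdv4, with 0.0750 and 24.9 RPKM in PP labelled knockout, against 0 and 0.0653 RPKM in PP wild-type. Its log2 fold change of 2.35 ± 2.13 did not pass (SE, adjusted p = 0.713). Trbj2-4 and Trbj1-2 were lower without overlap, with log2 fold changes of -4.07 ± 2.10 (SE, adjusted p = 0.591) and -1.09 ± 0.70 (SE, adjusted p = 0.693). The median log2 fold change was -0.38 over the segments and 0.16 over all genes.

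In LP 0 of 27 segments passed between genotypes in limma, where 0.0285% of all genes passed. An unadjusted p under 0.05 was found in 0 of the 27, against 5.27% of all genes. Libraries labelled knockout lay below both LP wild-type libraries in 7 segments, where 20.3% of all genes did so, and above them in 1, where 15.3% did so. The largest of these differences was in Trbj2-5, with 0.485 and 0 RPKM in LP labelled knockout, against 0.531 and 35.9 RPKM in LP wild-type, and it rested on the second wild-type library. Its log2 fold change was -2.63 ± 2.18 (SE, adjusted p = 1). Trbj2-7 had 34.4 and 42.2 RPKM in LP labelled knockout, against 125 and 100.4 RPKM in LP wild-type, and a log2 fold change of -1.53 ± 2.20 (SE, adjusted p = 1). Trbc2 did not differ beyond its spread, with a log2 fold change of -0.18 ± 0.33 (SE, adjusted p = 1). Averaged over the tissues 0 of 27 passed between genotypes, where 0.00949% of all genes passed. An unadjusted p under 0.05 was found in 3 (11.1%), namely Trbv13-2, Trbv13-3 and Trbc1, against 6.81% of all genes.

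The delta locus lies within the alpha locus on chromosome 14, and the C genes of both were near 0 in 5 of the 8 libraries. Trac, the only alpha C gene, had 0.384 and 0.768 RPKM in LP labelled knockout and 1.12 and 24.6 RPKM in LP wild-type, against 0.363 and 44.0 RPKM in PP labelled knockout and 31.8 and 0.534 RPKM in PP wild-type. It was high in 1 library each of 3 groups, at 894 to 1640 reads, and at 40 reads or fewer in the other 5 libraries. Trdc, the delta C gene, had 0.0216 and 0.0691 RPKM in LP labelled knockout and 0.0942 and 7.16 RPKM in LP wild-type, against 0.0469 and 13.6 RPKM in PP labelled knockout and 20.8 and 0.0815 RPKM in PP wild-type. It was above 1 RPKM in those same 3 libraries, at 310 to 894 reads, and at 4 reads or fewer in the others. The delta J segment Trdj1 was also found in those 3 libraries only, with 22.4 RPKM in the second PP library labelled knockout, 4.0 RPKM in the second LP wild-type library and 3.02 RPKM in the first PP wild-type library. Trac, Trdc and Trdj1 passed in 0 of the 7 comparisons, with the 3 libraries spread over 3 groups.

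Alpha and delta V and J segments changed from library to library. Of 158, 15 reached 1 RPKM, and 13 of the 15 did so in 1 library only. The second PP library labelled knockout held 10 of the 15, among them Traj59 with 48.5 RPKM, Trdv5 with 34.5 RPKM and Trav13-1 with 28.7 RPKM. The first PP wild-type library held Trdv2-2 with 30.8 RPKM and Trav5-4 with 11.9 RPKM, and the second LP wild-type library held Trav9-4 with 8.75 RPKM. Trdv4 reached 1 RPKM in 4 libraries, 2 of them with Trdc above 1 RPKM and 2 without, with 54.4 and 0.295 RPKM in LP labelled knockout and 24.2 and 18.2 RPKM in LP wild-type, against 0.0750 and 24.9 RPKM in PP labelled knockout and 0 and 0.0653 RPKM in PP wild-type. In the first LP library labelled knockout 790 reads of Trdv4 stood beside 1 read of Trdc. Its log2 fold change between LP and PP in wild-type was 4.41 ± 2.13 and did not pass (SE, adjusted p = 0.367).

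**Figure D4:**
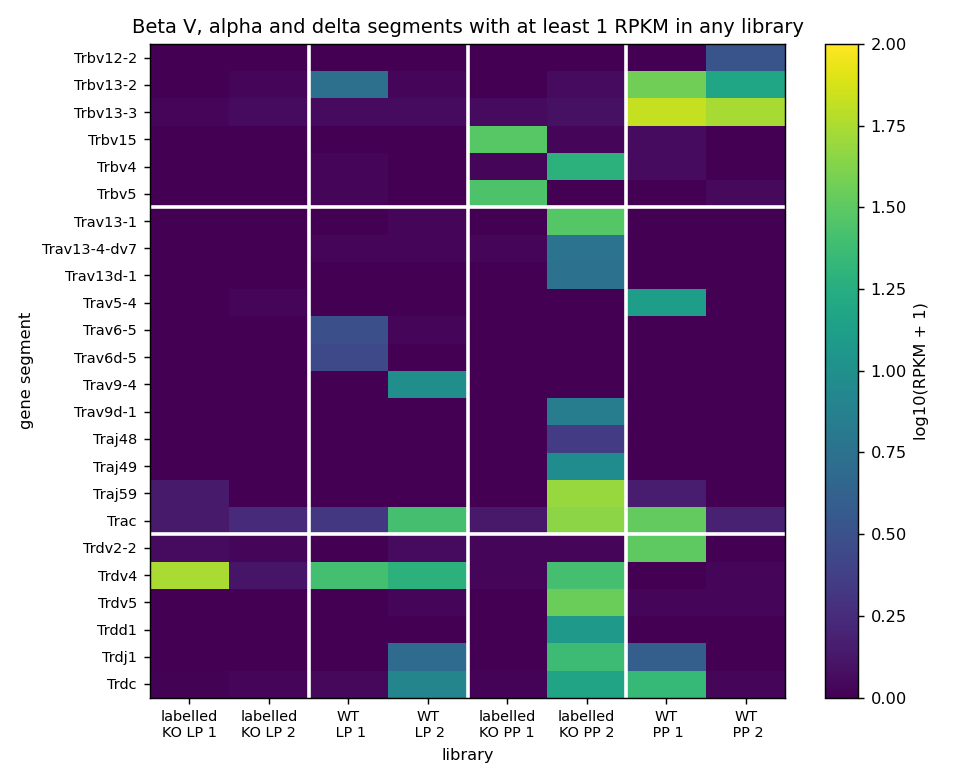
Level of beta V segments and of alpha and delta segments with at least 1 RPKM in any library (rows), in each of the 8 libraries (columns), as log10(RPKM + 1) by colour. White lines between rows part the beta, alpha and delta loci; the second PP library labelled knockout holds 10 of the alpha and delta V and J segments, and Trac and Trdc are both bright in 3 libraries.

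The partners of a surface T cell receptor were set beside the segments. The CD3 chains Cd3d, Cd3e and Cd3g, which carry the receptor to the surface, differed widely between replicates in most groups. Cd3d had 0.107 and 0.0574 RPKM in LP labelled knockout and 12.8 and 10.5 RPKM in LP wild-type, against 15.8 and 2.34 RPKM in PP labelled knockout and 0.0772 and 31.6 RPKM in PP wild-type. Its LP groups did not overlap, and the log2 fold change between genotypes in LP was -3.54 ± 1.75 and did not pass (SE, adjusted p = 1). Cd3e had 1.94 and 14.3 RPKM in LP labelled knockout and 14.1 and 0.196 RPKM in LP wild-type, against 40.6 and 56.3 RPKM in PP labelled knockout and 0.179 and 3.82 RPKM in PP wild-type. Cd3g had 0.325 and 10.5 RPKM in LP labelled knockout and 13.9 and 0.274 RPKM in LP wild-type, against 59.0 and 3.60 RPKM in PP labelled knockout and 0.326 and 111 RPKM in PP wild-type. They did not follow Trac and Trdc throughout: the second PP library labelled knockout was high in Cd3e and in Trac, while the first PP wild-type library, with 31.8 RPKM of Trac, had 0.179 RPKM of Cd3e and 0.326 RPKM of Cd3g. Cd247, the zeta chain, stayed at or below 0.593 RPKM, Trat1 was at 0 in all 8 libraries and Plcg1 stayed at or below 0.00593 RPKM.

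The signalling genes Lck, Zap70, Lat and Lcp2, and Cd4, which LTi cells are known to carry, were at 31.6 RPKM or more in every library. The recombination genes that act in lymphocytes alone were low: Rag2 was at 0 in all 8 libraries, Rag1 at or below 2.41 RPKM, and Dntt, which adds bases at the joints, at 11.1 RPKM in the second LP wild-type library and at or below 0.0489 RPKM in the others. Some genes of general DNA end joining on the same list were higher, among them Xrcc6 with 8.35 and 0.337 RPKM in LP labelled knockout and 14.4 and 6.49 RPKM in LP wild-type, against 28.8 and 39.6 RPKM in PP labelled knockout and 83.7 and 73.1 RPKM in PP wild-type. Its LP libraries lay below its PP libraries, and its log2 fold change of -3.09 ± 0.76 missed the threshold (SE, adjusted p = 0.0505). Of the 5 tested genes of the list 2 had a positive log2 fold change in that comparison. They were Xrcc5 with 0.44 ± 1.41 and Xrcc4 with 0.55 ± 1.54 (SE). Ptcra, the pre-receptor alpha chain, reached 21.5 RPKM in the first PP library labelled knockout. Of the 11 recombination and pre-receptor genes 5 were tested and 0 passed in limma between LP and PP averaged over the genotypes, at 1 unadjusted p under 0.05. Over all genes 4.33% passed there and 19.4% had an unadjusted p under 0.05.

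**Figure D5:**
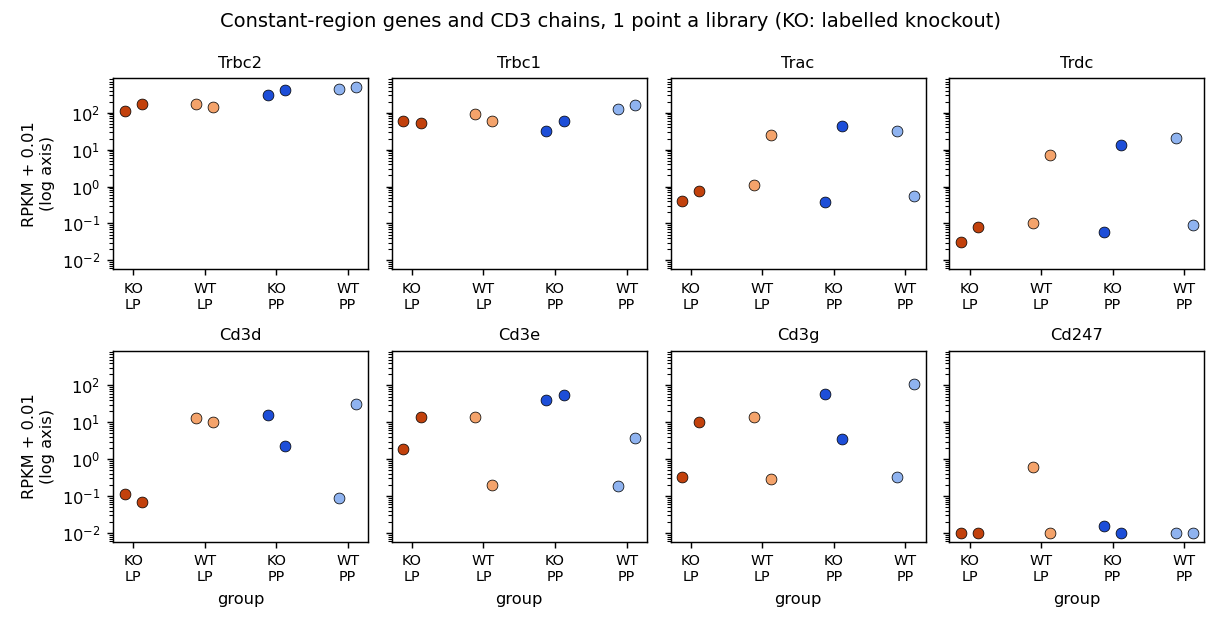
Level of the C genes of the beta, alpha and delta loci (top row) and of the CD3 chains (bottom row), as RPKM with 0.01 added on a log axis, 1 point a library and 4 groups a panel. Trbc2 lies between 111.5 and 497 RPKM in all 8 libraries, while Cd3g lies at 0.326 RPKM in the first PP wild-type library and at 111 RPKM in the second.

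Summed levels of marker lists were set beside the tissues. The 9 T cell defining markers, of which 6 were tested, summed to 2.46 and 30.3 RPKM in LP labelled knockout and 41.0 and 13.7 RPKM in LP wild-type, against 127 and 86.2 RPKM in PP labelled knockout and 43.8 and 176 RPKM in PP wild-type. All LP libraries lay below all PP libraries in this sum, and so they did in the LTi marker sum. Between LP and PP averaged over the genotypes 0 of the 6 passed in limma, where 4.33% of all genes passed. An unadjusted p under 0.05 was found in 1 of the 6, against 19.4% of all genes. The 6 genes associated with gamma delta T cells summed to 49.2 to 74.3 RPKM in LP and 151 to 174.5 RPKM in PP, and of their defining member Sox13 all libraries but 1 were at 0. Blk, which B cells also express, made up 23.2 to 60.9 RPKM of that sum in LP and 75.9 to 145.5 RPKM in PP, while Zbtb16 was at 19.1 and 7.48 RPKM in LP wild-type, against 0.0803 and 0.0705 RPKM in PP wild-type. Cd163l1 had 84.6 and 13.7 RPKM in PP wild-type and at most 0.112 RPKM in any other library. Of the 5 tested members 2 had a log2 fold change above 0 in LP against PP averaged over the genotypes, and 0 passed. B and plasma cell markers summed to 799 to 1414 RPKM in LP and 483 to 605 RPKM in PP, and epithelial markers to 60.9 to 260 RPKM in LP and 127 to 427 RPKM in PP, which overlap. Of the 8 epithelial markers 6 had a log2 fold change above 0 in LP against PP, with a median of 1.19, and 1 passed, lower in LP. The part of these cells in the levels of the segments was not tested.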

How the data were processed

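Per the labels' protocols, the RNA was purified by miRNeasy Micro kit and turned into Smart-seq2 libraries. The submitters' processing notes name featureCounts, Subread and mm10. The sources used here do not give the aligner, the annotation or the strand setting. The authors deposited log2(RPKM + 1) on a log2 scale, with 0.0001 in place of 0. The log was undone and 0.0001 read as 0. Library totals were found from small single-exon genes. Of those with under 50 reads, 97.2% to 100% came out whole within 0.05 reads, against at most 34.0% at any total between 20 and 36 M. All 29 D and J segments above 0 came out whole within 0.01 reads. For the 4 C genes and 7 of the 15 V segments with reads given, the length was chosen so that reads came out whole (within 0.01 reads plus 5e-06 of them), so this is no check there. Without molecular identifiers PCR copies count as reads, so limits from counts cover counting error only.

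All 205 segments matched RefSeq (GRCm38.p6, the assembly of mm10) by Entrez identifier. Another 29 segments of these loci stand in the table under other symbols. The 10541 genes that reached 1 RPKM in 2 or more libraries were fitted with limma 3.58.1 in R 4.3.3 (trend, two-sided) on log2(RPKM + 1), a pseudocount of 1, which understates the change of low genes. One model had 4 group means and an additive one gave average effects. Adjustment was Benjamini-Hochberg over all genes at 0.05. The fits were tested on simulated data. Sequences were read from GENCODE vM21 and aligned with Biopython 1.88.

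Named are all C genes, all segments that pass, the highest tested segments of each locus and kind, and up to 5 of the largest non-overlapping changes per direction with a mean of at least 5 RPKM. Trbv4, Trbv5, Trbv15, the single-library alpha and delta segments, the gamma genes under other symbols and the other members of each Trbj1 run were also named after their values were seen. The members and lists were chosen with earlier results of these data known. Alternatives were other pseudocounts, filters, scalings, a replicate block, only the 2 groups compared, and each library left out. Some genes of the marker lists are not reported here.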

Additional observations from a re-analysis of the deposited data

How the results depend on the processing

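For LP against PP averaged over genotypes, the count of 6 passing segments was 3 with no filter and 5 to 7 without 1 library each; the other 6 alternatives gave 6 or 7. In wild-type alone the count of 3 was 1 with a pseudocount of 0.1, 1 with no filter and 0 with only the 2 groups compared, and ran from 0 to 2 without 1 library each. In the libraries labelled knockout the count of 0 was 2 with a pseudocount of 5 and ran from 0 to 1 without 1 library each. For the 2 genotype comparisons, their average and the interaction the count was 0 under every alternative run. With replicate numbers as a block, the wild-type tissue count was 2, without Trbv13-3 (adjusted p = 0.0752), and the average tissue count 6. Same-numbered libraries did not deviate together over all genes (correlations of -0.0214 to 0.0103 over the 6 pairs of groups). With 2 libraries a group, this cannot show whether same-numbered libraries came from the same mice. Trbc2 between genotypes in LP (-0.18) was 0.035 after median-of-ratios rescaling and ran from -0.49 to 0.12 without 1 library each, 0.12 being without the first LP library labelled knockout. That rescaling moved the median log2 fold change of all genes between genotypes in PP to -0.07, against 0.16. Of 437 log2 fold changes recomputed, 401 kept direction and side of the threshold, 33 no longer passed, 1 newly passed and 2 changed sign. The cause of each change was not tested. Where an arm was left with 1 library, it was assumed to vary like the other groups.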
